A study of Homo sapiens with 6 samples.

Results

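The IFIT genes (interferon-induced proteins with tetratricopeptide repeats) were examined with and without knockdown of FuHsi in NCI-H1299, an established line from a human lung cancer. The members were the rows of the count table whose Ensembl identifiers carry the symbols IFIT1, IFIT2, IFIT3 and IFIT5, 4 of 60617 genes in the table. All 4 passed the filter on low counts, as did 17223 genes in all. Measured values played no part in that rule, but the family was chosen with earlier results of these data known. The series profiled RNA after knockdown to study the role of FuHsi in the nucleolus. Both groups are the same line, and the labels name no treatment. The control group has 3 libraries with the genotype WT and Puro in their titles, and the knockdown group has 3 libraries labelled as a FuHsi knockdown and titled Sh1. It is not stated whether the control cells carry a hairpin, and Sh1 is the single knockdown label in the series. Nothing in the labels says that replicates came from separate cultures, so p-values measure the spread between these libraries, which may be technical.

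IFIT proteins are built from repeated helical modules that form a groove for RNA or for other proteins. Most cells make little of them at rest, and interferon or the sensing of foreign RNA switches their genes on through the transcription factors ISGF3 and IRF3. IFIT1 binds messenger RNA whose cap lacks the methyl group that marks the cell's own transcripts, and blocks its translation. IFIT2 and IFIT3 assemble with it, and IFIT3 stabilises IFIT1. IFIT5 acts as a monomer that binds RNA with an uncapped triphosphate end.

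The libraries were checked against cell type markers. Libraries held 24231515 to 34306849 counts, with every control library deeper than every knockdown library. Values are in CPM, counts scaled to the size of their library. Log2 CPM correlated at 0.990 to 0.992 between libraries of a group and at 0.963 to 0.969 between libraries of different groups. Of 5 epithelial markers, KRT8 and KRT18 were expressed, at 494 ± 6.43 and 335 ± 2.36 CPM in control (mean ± SD, n = 3), while EPCAM, CDH1 and KRT19 were near 0 with 49, 9 and 20 counts over all 6 libraries. The 4 mesenchymal markers were expressed, led by VIM at 1366 ± 31.6 CPM in control. On knockdown KRT8 fell to 320.02 ± 7.43 and VIM to 839 ± 29.5 CPM. The mesenchymal markers FN1 and ZEB1 rose, by 0.93 and 0.45 on the log2 scale. KRT18 and the remaining mesenchymal marker were not called in either direction, so neither list moved as a whole. The lung adenocarcinoma markers were at or near 0: SFTPC and SFTPA1 had 0 counts in every library, and the 5 markers of that list summed to at most 0.45 CPM in control and 1.05 CPM in knockdown. Of 8 leukocyte markers, PTPRC and ITGAM were tested, and the sum of the list ran from 12.1 to 12.4 CPM in control and from 11.7 to 13.3 CPM in knockdown, most of it ITGAM at 11.4 and 11.1 CPM. PTPRC rose from 0.273 to 0.748 CPM, and its part in the results was not tested. It had 16, 4 and 6 counts in control and 21, 25 and 14 in knockdown. PTPRC needed knockdown libraries to pass the filter, so its direction was not free. No row of the table carries the name FuHsi, so the level of the target is not analysed here.

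The 4 members lie side by side on chromosome 10 (GRCh38, GENCODE v29), all on the plus strand, in a span of 137 kb. In order along the chromosome they are IFIT2 (ENSG00000119922, 89283694 to 89309276), IFIT3 (ENSG00000119917, 89327894 to 89340971), IFIT1 (ENSG00000185745, 89392546 to 89406486) and IFIT5 (ENSG00000152778, 89414586 to 89421001). The transcripts of support level 1 of all 4 genes have 2 exons. The pseudogene IFIT6P and the paralog IFIT1B (89378056 to 89385205) lie between IFIT3 and IFIT1. The stretches upstream of the annotated RefSeq starts are shown because interferon-stimulated genes are known for a response element there, the ISRE, which ISGF3 and IRF factors bind. Windows were available for 3 of the 4 members, in RefSeq sequence on GRCh38.p14. IFIT2 has no entry. Each line below gives 170 bases before the start and 10 from it on, on the plus strand, and capitals mark matches to the core of the element, GAAA, any 2 bases and GAAA again, in either orientation. IFIT3 has 2 annotated starts, and the paralog IFIT1B is shown for comparison.
IFIT1, chr10:89392453-89392632: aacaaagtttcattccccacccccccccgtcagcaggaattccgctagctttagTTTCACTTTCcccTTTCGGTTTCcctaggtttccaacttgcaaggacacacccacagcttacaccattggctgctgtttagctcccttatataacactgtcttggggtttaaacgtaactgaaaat
IFIT3 first start, chr10:89327827-89328006: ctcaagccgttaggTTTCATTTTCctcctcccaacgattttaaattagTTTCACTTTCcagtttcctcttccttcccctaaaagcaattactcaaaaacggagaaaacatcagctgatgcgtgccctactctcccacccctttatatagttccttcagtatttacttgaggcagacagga
IFIT3 second start, chr10:89332359-89332538: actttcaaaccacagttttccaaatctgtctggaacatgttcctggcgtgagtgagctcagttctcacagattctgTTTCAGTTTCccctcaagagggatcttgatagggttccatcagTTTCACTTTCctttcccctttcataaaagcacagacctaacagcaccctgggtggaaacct
IFIT5, chr10:89414398-89414577: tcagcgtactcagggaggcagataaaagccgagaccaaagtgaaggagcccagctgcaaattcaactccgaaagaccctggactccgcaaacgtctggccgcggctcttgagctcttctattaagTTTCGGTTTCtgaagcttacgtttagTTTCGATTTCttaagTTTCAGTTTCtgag
IFIT1B, chr10:89377886-89378065: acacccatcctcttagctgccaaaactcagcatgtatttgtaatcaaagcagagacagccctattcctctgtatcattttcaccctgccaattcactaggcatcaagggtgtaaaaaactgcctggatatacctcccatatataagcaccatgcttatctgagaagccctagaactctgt

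Every match read TTTC, 2 bases and TTTC on the plus strand, which is the core on the other strand. IFIT1 held 2 matches, starting 116 and 103 bases before its RefSeq start. IFIT3 held 2 at its first start, 156 and 122 bases before it, and 2 at its second, 94 and 51 bases before it. IFIT5 held 3, at 45, 19 and 4 bases before its start, so the last of them runs across the start. The GENCODE start of IFIT5 lies further downstream than that of RefSeq. IFIT1B held none. Among all 35116 RefSeq windows of 300 bases, 3.57% held at least 1 match, 0.259% at least 2 and 0.037% at least 3. The longer form, the core followed by CT, was present in 0.273% of windows. It was found once in IFIT1, once at each IFIT3 start and 3 times in IFIT5. TATAAA, present in either orientation in 11.5% of windows, matched at the first IFIT3 start alone. That match read TTTATA on the plus strand, so TATAAA lies on the other strand. Only these exact letters were searched, and related AT-rich words were not. These matches are letters in a window and not measured binding.

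All 4 IFIT genes rose on knockdown, by 51.5-fold for IFIT2, 35.02-fold for IFIT1, 22.8-fold for IFIT3 and 4.15-fold for IFIT5, where 30.7% of the 17223 tested genes were called higher. In control cells the 4 genes lay close together at low levels, and IFIT5 had the highest counts. In knockdown cells IFIT2 had the highest counts and IFIT5 the lowest.

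IFIT1, which binds incompletely methylated caps, was at 11.7, 13.4 and 13.9 CPM in control replicates 1, 2 and 3 and at 403, 405 and 557 CPM in knockdown replicates 1, 2 and 3. IFIT2, the partner that binds RNA and is linked to cell death, was at 13.6, 15.7 and 13.9 CPM in control and at 651, 679.6 and 901 CPM in knockdown. The groups of both genes were far apart, and knockdown replicate 3 was the highest library for each. IFIT3, the stabilising partner, was at 12.8, 14.2 and 16.2 CPM in control and at 289, 311 and 384 CPM in knockdown. IFIT5, the binder of triphosphate ends, was at 19.8, 20.8 and 19.1 CPM in control and at 77.2, 76.1 and 94.8 CPM in knockdown. None of the 4 genes overlapped between groups, as was so for 33.0% of tested genes in this direction, and knockdown replicate 3 was again the highest for IFIT3 and IFIT5. CPM carry TMM factors, which scale libraries by the trimmed mean of their log ratios.

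**Figure D1:**
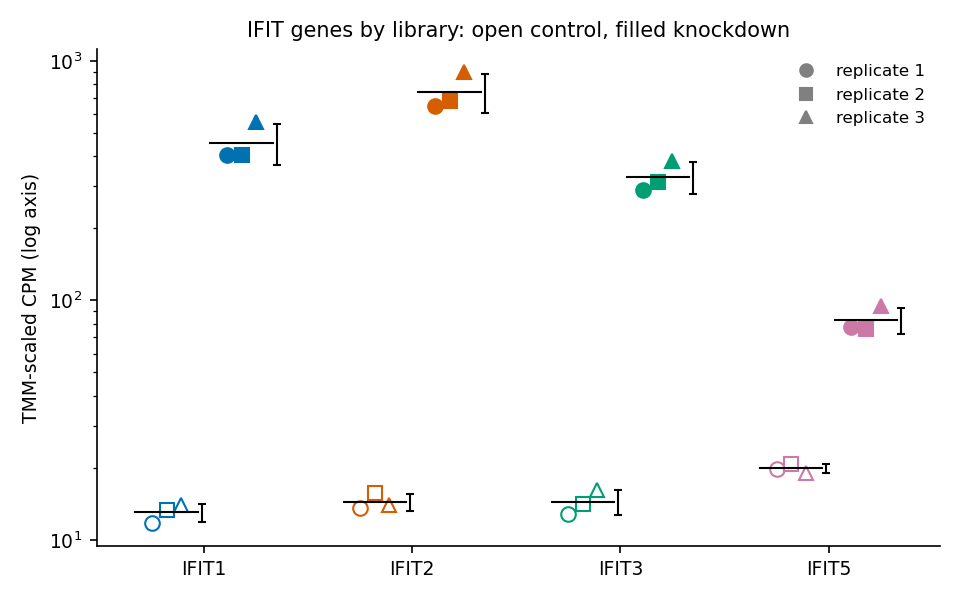
TMM-scaled CPM on a log axis for each IFIT gene in the 3 control libraries (open symbols) and the 3 knockdown libraries (filled symbols), with symbol shape for the replicate number, a line for the mean and a bar for the SD. Control values lie between 11.7 and 20.8 CPM for all 4 genes, and knockdown values run from 76.1 CPM for IFIT5 to 901 CPM for IFIT2.

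The log2 fold changes were 5.69 ± 0.20 (SE) for IFIT2, 5.13 ± 0.21 for IFIT1, 4.51 ± 0.17 for IFIT3 and 2.05 ± 0.07 for IFIT5. Adjusted by the Benjamini-Hochberg method, their p-values were 1.45e-05, 2.56e-05, 1.88e-05 and 5.19e-24 in that order, in edgeR's quasi-likelihood test over 17223 genes. IFIT5 had the smallest fold change of the family and also the smallest p-value. Its biological coefficient of variation, the spread between libraries beyond counting error, was fitted at 5.19%, against 14.2%, 13.5% and 12.7% for IFIT1, IFIT2 and IFIT3. Genes of like abundance had a fitted value of 3.19% to 4.22%. Calls were common in this comparison, with 30.9% of tested genes lower as well, so a call alone says little about the family. With library size alone 6986 genes were higher and 3855 lower. Called rises of at least 2-fold made up 9.16% of tested genes, and those of at least 4-fold, which all 4 members passed, made up 2.12%. These rises are relative to the TMM scale, and scaling by library size alone would raise all log2 fold changes by about 0.15. In bulk RNA a large rise in few cells and a smaller rise in all cells cannot be told apart.

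By size of rise, IFIT2 ranked 18, IFIT1 27, IFIT3 37 and IFIT5 335 among the 17223 tested genes. Most genes with larger fold changes were scarce. Among the 351 genes with a mean log2 CPM at least that of IFIT2, no gene had a larger fold change. IFIT1 ranked 2 among 760 genes at least as abundant as itself, behind IFIT2, and IFIT3 ranked 3 among 1212, behind IFIT1 and IFIT2. IFIT5 ranked 36 among 4761. The mean includes the knockdown libraries, so a gene that rises is moved up in abundance by its own rise.

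**Figure D2:**
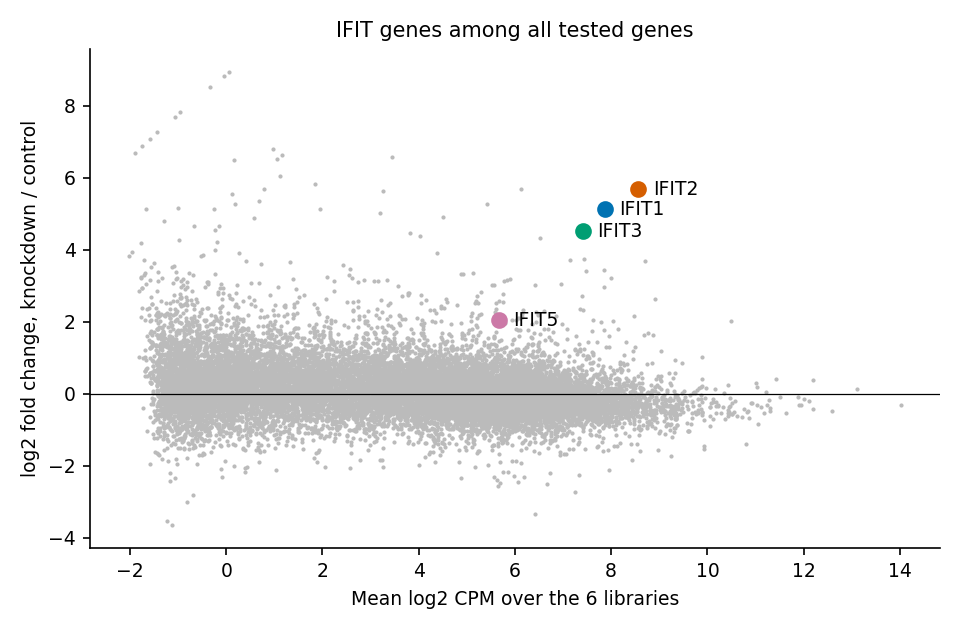
Log2 fold change of knockdown over control against mean log2 CPM over the 6 libraries, with 1 grey point for each of 17223 tested genes and the IFIT genes in colour. IFIT2, IFIT1 and IFIT3 sit at 5.69, 5.13 and 4.51, above every gene outside the family that is at least as abundant, and IFIT5 sits at 2.05 with 35 genes at least as abundant above it, among them the other 3 members.

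Together the 4 genes took 0.00552%, 0.00608% and 0.00593% of all counts in control and 0.151%, 0.154% and 0.204% in knockdown, a ratio of means of 29.004. This share needs no scaling between libraries. The groups did not overlap, and an exact two-sided permutation test gave p = 0.1, the smallest p that 3 against 3 libraries can give. The make-up of the family's counts changed as well. IFIT5 made up 32.3% ± 1.97 of them in control and 5.17% ± 0.267 after knockdown (mean ± SD, n = 3). IFIT2 went from 23.4% ± 1.26 to 46.2% ± 0.342, and IFIT1 from 21.1% ± 0.905 to 28.2% ± 0.634. IFIT3 was at 23.3% ± 2.05 and 20.4% ± 0.673.

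**Figure D3:**
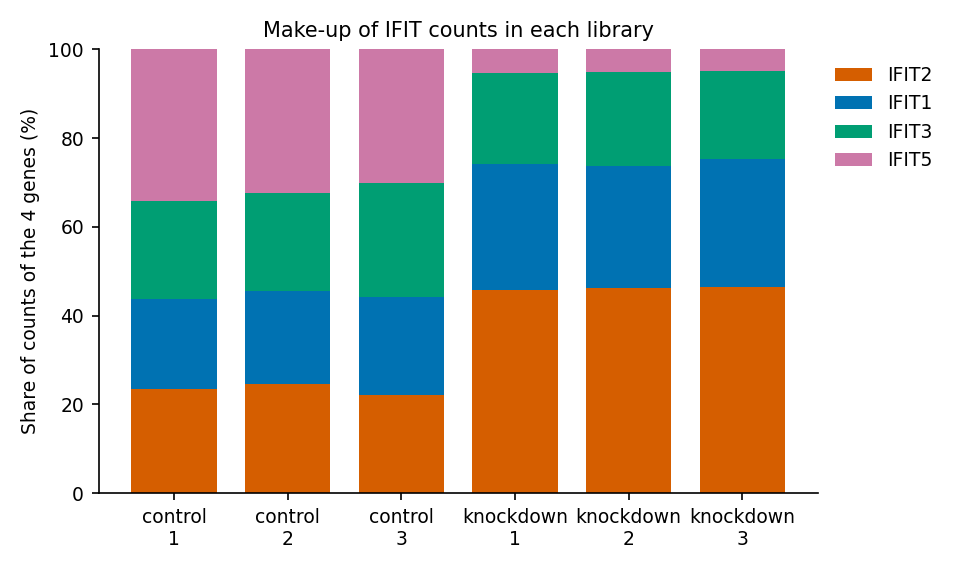
Stacked bars give the percent of the counts of the 4 IFIT genes that each gene took in each of the 6 libraries, from 0 to 100%. The 3 knockdown bars are nearly alike, with IFIT2 at 45.8% to 46.5%, and IFIT5 shrinks from over 30.2% in each control bar to at most 5.43%.

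The unequal rises were measured as ratios of counts within a library, in which scaling cancels. The ratio of IFIT2 to IFIT1 was 1.16, 1.18 and 1.00 in control and 1.61, 1.68 and 1.62 in knockdown. The ratio of IFIT2 to IFIT3 was 1.06, 1.11 and 0.859 in control and 2.25, 2.18 and 2.35 in knockdown. The ratio of IFIT1 to IFIT3 was 0.916, 0.943 and 0.859 in control and 1.395, 1.301 and 1.452 in knockdown. The order IFIT2, IFIT1, IFIT3 thus held in each knockdown library and in none of the control libraries.

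Against IFIT5 the gap was larger. The ratio of IFIT2 to IFIT5 went from 0.686, 0.757 and 0.73 in control to 8.44, 8.93 and 9.50 in knockdown, a change of 3.63 on the log2 scale. The ratio of IFIT1 to IFIT5 changed by 3.06 and that of IFIT3 to IFIT5 by 2.46. The changes among the other members were smaller, at 1.17 for IFIT2 to IFIT3, 0.61 for IFIT1 to IFIT3 and 0.56 for IFIT2 to IFIT1. None of the 6 ratios overlapped between groups. Each had p = 0.1 by the exact two-sided permutation test and an adjusted p of 0.1 over the 6 pairs, which is the smallest value the design allows. The 5% level therefore cannot be reached, and the size of each change stands against SDs of 0.03 to 0.21 within groups.

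The ratios were also steadier than the levels among knockdown libraries. The level in knockdown replicate 3 was 1.38 times the mean of the other knockdown libraries for IFIT1, 1.35 for IFIT2, 1.28 for IFIT3 and 1.24 for IFIT5. The coefficient of variation of CPM in knockdown was 19.4%, 18.4%, 15.1% and 12.7% for IFIT1, IFIT2, IFIT3 and IFIT5, where counting error alone gives 0.907%, 0.71%, 1.07% and 2.13%. In control it was 8.68%, 8.10%, 11.8% and 4.37%, with counting error of 4.002% to 4.96%. The log2 ratios of knockdown libraries spanned 0.05 for IFIT2 to IFIT1 and at most 0.17 for the other pairs. Without knockdown replicate 3 the log2 fold changes were 4.95, 5.52, 4.38 and 1.94 for IFIT1, IFIT2, IFIT3 and IFIT5, and all 4 genes were still called.

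Levels of different genes were compared per kilobase of annotated exon. In control the order was IFIT3 at 5.45 ± 0.645 CPM per kb, IFIT5 at 4.95 ± 0.216, IFIT2 at 3.51 ± 0.285 and IFIT1 at 2.82 ± 0.245 (mean ± SD, n = 3). IFIT3 and IFIT5 overlapped between libraries, and the other neighbours in that order did not. In knockdown the order was IFIT2 at 181 ± 33.3 CPM per kb, IFIT3 at 124 ± 18.7, IFIT1 at 98.7 ± 19.1 and IFIT5 at 20.6 ± 2.62. IFIT3 and IFIT1 overlapped there. The place of IFIT1 depends on its length: 1 transcript of lower support extends its exons from 1880 to 4613 bases. The longest transcript of support level 1 was also tried, a choice made after seeing the data. With it IFIT1 had the highest mean of the 4, 6.92 ± 0.601 in control and 242 ± 46.9 CPM per kb in knockdown. Its libraries overlapped those of IFIT3 in control and those of IFIT2 in knockdown. IFIT5 was the lowest in knockdown with each length tried.

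Other copies of the family gave almost no counts. IFIT1B had 2, 0 and 0 counts in control and 6, 0 and 2 in knockdown, and IFIT6P had 0 in every library. IFIT1P1, a processed pseudogene on chromosome 13, had 4, 2 and 2 counts in control and 2, 1 and 8 in knockdown. None of the 3 passed the filter, and 0 counts in a library allow up to 3. The treatment of reads that fit several places is not given in the sources used here. Of all 50-base words in GENCODE transcripts of IFIT1, 1.02% occur in transcripts of another gene, 38 of the 47 shared words in IFIT1B. The share is 7.91% for IFIT2, 3.64% for IFIT3 and 0 of 3966 words for IFIT5. Of the 324 shared words of IFIT2, 307 lie in an overlapping non-coding gene, ENSG00000232110, which had 55 counts in all 6 libraries together against 60880 for IFIT2.

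The flanks of the cluster were read in the same fit, to see whether genes around it moved with the family. Within 500 kb of the span, 33 other genes are annotated and 11 were tested. Of these, 5 rose, 1 fell and 5 were not called, with a median log2 fold change of 0.69 against 0.03 for all tested genes. Over all tested genes, 30.7% were called higher and 30.9% lower. CH25H and ANKRD22, both scarce, rose by as much as IFIT5, and the other 3 rose by 0.69 to 1.10. CH25H and ANKRD22 passed the filter through their knockdown counts, so their direction was fixed by the filter. Both enter the count and the median.

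CH25H, the enzyme that makes 25-hydroxycholesterol and a known interferon-induced gene, lies on the side of IFIT2. It had 0 counts in all control libraries and 12, 16 and 18 in knockdown, at least 17.9-fold higher when the control group is set at 3 counts. LIPA, lysosomal acid lipase, runs on the minus strand across IFIT2, IFIT3 and IFIT1. Its longest model starts 29 bases from the GENCODE start of IFIT5, on the opposite strand. LIPA was at 61.6, 54.5 and 61.0 CPM in control and 94.6, 101.3 and 89.5 CPM in knockdown. Its log2 fold change was 0.69 ± 0.05 (SE), and its adjusted p in edgeR's quasi-likelihood test was 7.64e-18. Knockdown replicate 3 was the lowest knockdown library for LIPA and the highest for IFIT5. Whether counting used strand is not given in the sources used here, and 4.07% of LIPA's exonic bases and 10.3% of those of IFIT2 are shared with other genes.

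Further out, STAMBPL1, a deubiquitinase, rose from 21.4 ± 1.03 to 45.9 ± 1.18 CPM (mean ± SD, n = 3) and FAS, a death receptor, from 15.4 ± 2.35 to 26.1 ± 1.18. ANKRD22 rose from a level near the limit, with 6, 6 and 4 counts in control and 12, 21 and 28 in knockdown. KIF20B, a mitotic kinesin, fell from 109.8 ± 2.37 to 59.8 ± 2.42 CPM. ACTA2, SLC16A12, PANK1 and a pair of non-coding genes were not called, at log2 fold changes of -0.37 to 0.97.

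**Figure D4:**
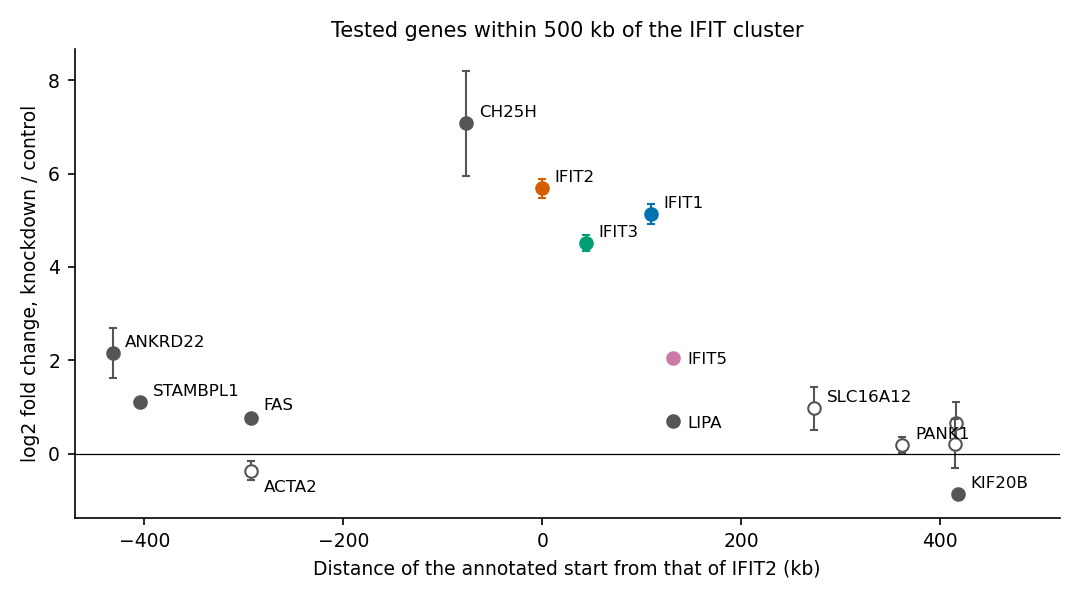
Log2 fold change of knockdown over control, with its SE, against the distance in kb of each gene's annotated start from that of IFIT2, for the 15 tested genes within 500 kb of the cluster (filled symbols called, open symbols not called). The IFIT genes, ANKRD22 and CH25H stand at 2.05 or higher, while LIPA, whose start adjoins that of IFIT5, is at 0.69. CH25H is fitted against control counts of 0, so its height depends on the prior count.

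The genes whose 6 library values ran most like each member were found by the distance between log2 CPM profiles, each set to 0 at its control mean, over the 6 libraries. Candidates were genes with a symbol and a mean log2 CPM of at least 1. OASL, a relative of the oligoadenylate synthetases, was nearest to IFIT2 at a distance of 0.24. It was at 2.32, 3.33 and 2.49 CPM in control and 117, 128 and 171 CPM in knockdown. MX1, a dynamin-like antiviral GTPase, and IFI44 followed at 0.67 and 0.92. SAMD9L, IFI44 and MX1 were nearest to IFIT1, at 0.69, 0.72 and 0.78, and closer to it than IFIT2 at 0.99.

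TRANK1, ACTN2 and DDX60 were nearest to IFIT3, at 0.31, 0.50 and 0.63. ACTN2, a muscle-type alpha-actinin, rose from 1.54 ± 0.225 to 32.1 ± 8.09 CPM (mean ± SD, n = 3), and DDX60, a helicase that aids RNA sensing, from 8.82 ± 1.26 to 176 ± 32.1. FBLL1, a relative of fibrillarin, EIF2AK2, the kinase PKR that halts translation on double-stranded RNA, and MLKL, the effector of necroptosis, were nearest to IFIT5, at 0.10, 0.12 and 0.13. PKR was at 74.1, 79.9 and 78.1 CPM in control and 300.1, 298 and 350.0 CPM in knockdown. The nearest other member was at 4.26 from IFIT5, so its profile lay closer to these genes than to its own family. By this measure a gene with a rise of another size is distant, whatever its pattern among replicates.

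The genes that switch on the family were read from lists. The counts over a list describe it and do not test it. Each stands beside the shares of all tested genes, 30.7% called higher and 30.9% called lower. Of 13 genes for RNA sensing and activation of IRF3, 11 rose and 2 fell, with a median log2 fold change of 1.43. RIGI, which senses triphosphate ends, went from 24.4, 25.8 and 22.7 CPM in control to 271, 299 and 398 CPM in knockdown. IFIH1, the sensor of long double-stranded RNA, went from 39.6 ± 2.18 to 424 ± 75.5 CPM. Genes for proteins downstream of the sensors ranged widely. MAVS, the adaptor, was at a log2 fold change of 0.14, TBK1, the kinase of IRF3, at 0.52, and IRF3 itself at 0.36. STING1 was at 1.43, the related kinase IKBKE at 1.71 and IRF7 at 2.82. CGAS and TRAF3 fell, by 0.11 and 0.13 on the log2 scale, and with library size alone 0 genes of this list were lower. IRF3 shares 19.3% and TBK1 14.7% of exonic bases with other genes.

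Interferon genes were barely detected. IFNB1 had 0 counts in every control library and 29, 20 and 22 in knockdown, at least 27.7-fold higher when the control group is set at 3 counts. IFNL1 had 0, 4 and 0 counts in knockdown, IFNL2 6, 2 and 0, and IFNL3 0, 6 and 10, with 0 in control for each. IFNL2 and IFNL3 are near-identical, so their counts are uncertain. Of 21 interferon genes, 13 had 0 counts in all libraries. IFNE was tested, and at a log2 fold change of -0.58 ± 0.37 (SE) it was not called.

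Of 12 tested genes for interferon receptors and ISGF3, 8 rose and 0 fell, with a median of 0.56. Of all tested genes, 30.7% were called higher and 30.9% lower. STAT2, a subunit of ISGF3, went from 30.1 ± 3.25 to 145 ± 16.9 CPM (mean ± SD, n = 3). IRF9, the DNA-binding subunit of ISGF3, had 5, 5 and 2 counts in control and 10, 6 and 14 in knockdown and did not pass the filter. Other genes overlap 48.4% of its exonic bases, and IFNAR2, at 1.63 ± 0.482 CPM in control, is overlapped over 83.2%. The part of that overlap in their low counts was not tested. IFNAR1 and JAK1 rose, by 0.48 and 0.22. Among 7 tested genes of negative feedback, USP18, which damps the interferon receptor, rose by 3.13, and 4 fell. PTPN11 was the lowest at -0.74 and PTPN2 was at -0.35.

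Of 13 genes for cap formation and processing of the RNA ends that IFIT proteins read, 5 rose and 5 fell, with a median of -0.05. These shares are near those of all tested genes, 30.7% higher and 30.9% lower. CMTR1, which adds the cap methyl group that IFIT1 discriminates against, went from 103, 99.98 and 106 CPM in control to 149.9, 145 and 165 CPM in knockdown, a log2 fold change of 0.57 ± 0.04 (SE). CMTR2, which methylates the next nucleotide, rose by 0.46, and RNMT, which methylates the cap guanine, by 1.44. DUSP11, which removes phosphates from triphosphate ends, rose by 0.85. RNGTT, the capping enzyme itself, and EIF4E, the cap-binding initiation factor, fell by 0.59 and 0.36. With library size alone, 7 genes of this list were higher and 3 lower.

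The initiation factor eIF3, which IFIT1 and IFIT2 are known to bind, had 11 of 13 subunit genes lower and 0 higher. Their median was -0.23, and 30.9% of all tested genes were called lower. EIF3B was the lowest at -0.84, followed by EIF3I at -0.45. EIF3E, a subunit that IFIT proteins contact, went from 529 ± 7.88 to 443 ± 7.53 CPM (mean ± SD, n = 3). EIF3C, the other such subunit, was at 41.1 ± 4.98 and 39.8 ± 0.54 CPM and was not called. With library size alone, 6 subunits were lower and 1 was higher.

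Of 29 tested interferon-induced effectors outside the family, all 29 rose, against 30.7% of all tested genes, with a median of 3.42. The list was drawn up with the response of these libraries known, and the remaining 3 of its 32 genes, MX2, CMPK2 and EPSTI1, had 0 counts in control and too few in knockdown to be tested. XAF1, a cofactor in apoptosis, had 0 counts in control and 64, 30 and 63 in knockdown, at least 61.1-fold higher with the control group at 3 counts, and setting it at that bound leaves the median as it is. OAS1, which makes the activator of RNase L, had 2, 16 and 4 counts in control and 597, 550 and 666 in knockdown, a log2 fold change of 6.57. IFITM2, which blocks viral entry, rose least, by 0.77. XAF1, RSAD2, BST2, TRIM22, IFITM1 and IFI44L had fewer than 10 counts in each control library. They passed the filter through their knockdown counts, so their direction was fixed by the filter. OAS1, and MX1 with 16, 12 and 9 counts in control, also needed knockdown libraries to pass, so their direction was not free either. IFIT2, IFIT1 and IFIT3 were above this median and IFIT5 was below it. As for the IFIT genes, knockdown replicate 3 was the highest knockdown library for 28 of the 29, against 32.8% of all tested genes. Of the 32 listed effectors, tested or not, 27 had a RefSeq window and 77.8% of those held the ISRE core in at least 1 window, against 4.09% of the table's genes with a window. Of the 10 nearest genes of the members, 9 had a window and 4 held it. These 4, DDX60, EIF2AK2, IFI44 and MX1, are also among the listed effectors and so are counted in both sets.

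**Figure D5:**
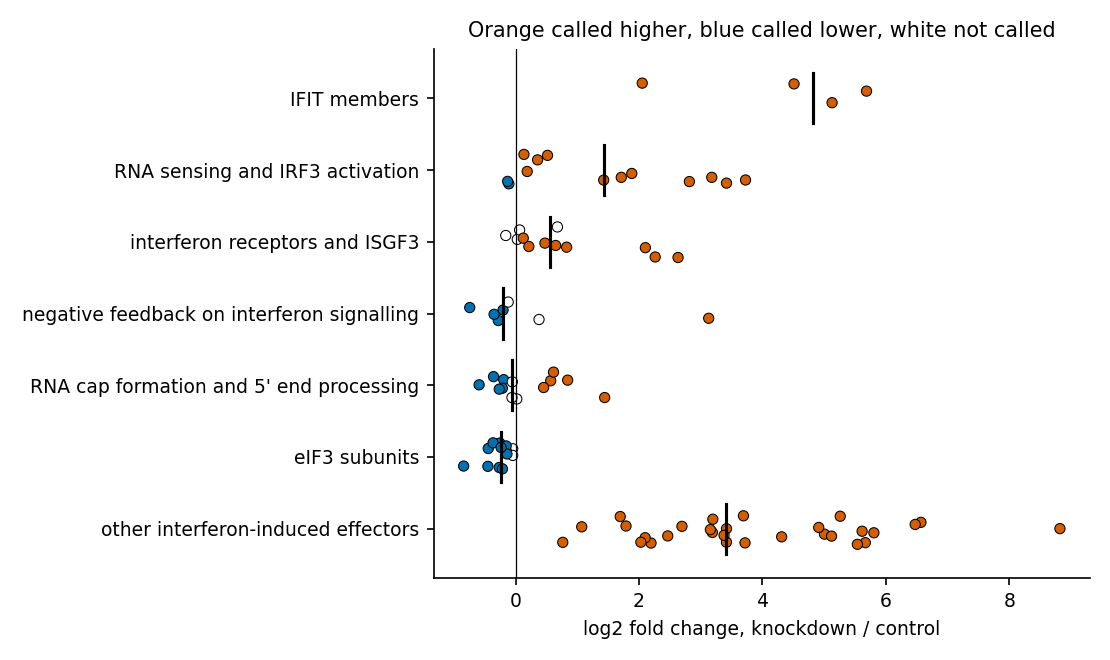
Log2 fold change of knockdown over control for the IFIT genes and for the tested genes of 6 lists, with 1 point per gene (orange called higher, blue called lower, white not called) and a bar at the median. The IFIT genes and the 29 other effectors lie at the right, RNA sensing has a median of 1.43, and the eIF3 subunits lie at or below 0. XAF1, at 8.82, is fitted against control counts of 0.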

How the data were processed

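Total RNA of 3 control and 3 knockdown samples of NCI-H1299 was made into TruSeq libraries, per the labels' protocols. The authors deposited whole-number read counts per Ensembl gene, without normalization. The tools listed, per the submitters' processing notes, are DESeq2 1.30.1, featureCounts 2.0.1, STAR 2.7.0d and Trim Galore 0.6.6, and the build is hg38. No annotation release, strand setting or treatment of multi-mapped reads is given in the sources used here.

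Genes were filtered with filterByExpr (minimum count 10) of edgeR 4.0.16 in R 4.3.3, scaled by TMM and tested with the quasi-likelihood test with robust dispersions and group as the only term. Calls were made at a Benjamini-Hochberg adjusted p under 0.05 over 17223 genes. The SE was derived from the test statistic. Profiles used log2 CPM with a prior count of 2, and ratios added 0.5 counts to each gene for the log2 values. On simulated data for this comparison, with 16671 genes tested, 157 of 200 genes given a 2-fold change, some of which did not pass the filter, were recovered with the correct sign, and 12 of the 16479 tested genes without a change were called. Counts of 0 were given an upper limit of 3 counts, for counting error only.

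Symbols came from a table of gene names, which held 60261 of 60617 identifiers, and from GENCODE v29. Neighbours were all GENCODE genes within 500 kb of the span of the members. Named genes were the members and paralogs, the 3 nearest profiles of each member, the tested neighbours, from each list the 2 largest called rises and falls, and list genes fixed by their role. IRF3, JAK1, IFNAR1, IFNAR2, IFNE, IKBKE, IRF7, IFITM2, the untested effectors and those with low control counts were named after their values were seen. The members and lists were chosen with earlier results of these data known. Alternatives were other scaling factors, no filter, DESeq2 1.42.0, a replicate block, the leaving out of each library, and other lengths, denominators and prior counts.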

Additional observations from a re-analysis of the deposited data

How the results depend on the processing

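The 4 IFIT genes were called higher under all 12 alternatives, with log2 fold changes of 4.95 to 5.28 for IFIT1, 5.52 to 5.84 for IFIT2, 4.38 to 4.67 for IFIT3 and 1.94 to 2.21 for IFIT5, and adjusted p-values of at most 0.000558 (edgeR or DESeq2). Genes called higher numbered 4905 to 6986 and genes called lower 3855 to 5401, each within 1.5 times the reported count. The highest and the lowest of these counts, 6986 and 3855, came with library size alone. Leaving out 1 library at a time gave 4962 to 5017 genes higher and 5050 to 5198 lower, log2 fold changes of 4.95 to 5.21 for IFIT1, 5.52 to 5.77 for IFIT2, 4.38 to 4.60 for IFIT3 and 1.94 to 2.10 for IFIT5, and a ratio of the family's share of counts of 26.1 to 30.6. All 6 changes of ratio between members kept their direction under all 8 alternatives, and the ratio of the share kept its direction under all 7. Per kilobase, IFIT2 in control moved to 3.89 with the longest transcript and 4.13 with the longest of support level 1, and IFIT1 moved to 6.92 in control and 242 in knockdown with the latter. With library size alone, 0 genes for RNA sensing were lower, 3 genes for RNA ends were lower, and eIF3 subunits had 1 higher and 6 lower. With the replicate number as a block, the log2 fold changes were 5.11, 5.67, 4.51 and 2.05 for IFIT1, IFIT2, IFIT3 and IFIT5, and no call of a member changed. The SEs with the block were 0.055 for IFIT1, 0.097 for IFIT2, 0.050 for IFIT3 and 0.067 for IFIT5. Without the block they were 0.212, 0.204, 0.174 and 0.070. Over all tested genes, the correlation of deviations between control and knockdown libraries of a number was -0.000751, -0.00642 and -0.0235. A correlation over all genes cannot show whether libraries of a number were paired, and the labels do not say so.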
